A study of Mus musculus with 4 samples.

Results

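The genes for beta-catenin, for the complex that destroys it and for the TCF/LEF factors that carry it to DNA were examined in sorted mouse intestinal tumour cells. They were Ctnnb1, which encodes beta-catenin, the destruction complex genes Apc, Axin1, Gsk3b, Csnk1a1 and Btrc, and the factor genes Tcf7, Tcf7l1, Tcf7l2 and Lef1. These 10 genes were chosen by name from 22911 named genes, and every probe whose transcript accession belonged to one of them was taken, which gave 21 of the 56605 probes on the array. RNA came from 4 populations, with 1 one-colour Agilent array each. Among Lgr5+ cells these were Lgr5+ tuft marker+ and, beside them, Lgr5+ tuft marker- cells, and among Lgr5- cells they were Lgr5- tuft marker+ and, beside them, Lgr5- tuft marker- cells. Lgr5 is a receptor that marks intestinal stem cells, and the tuft marker was IL17RB, a cytokine receptor subunit carried by tuft cells, which are chemosensory cells of the gut epithelium. They are called double-positive, Lgr5 single-positive, IL17RB single-positive and double-negative cells below, and tuft marker differences are given within Lgr5+ (the first name over the second) and within Lgr5- (the third over the fourth). All 4 populations were sorted from EpCAM+ epithelial tumour cells, 14 days after tamoxifen was given to mice with the genotype Lgr5CreERT2/+ and Ctnnb1lox(ex3)/ox(ex3). In these mice the Cre recombinase is made under control of the Lgr5 locus and is switched on by tamoxifen, so that exon 3 of Ctnnb1 is removed in cells that express Lgr5 at that time and is missing in their descendants. Every population carried this allele, and no array held cells of mice with another genotype. The sources used here do not give how many animals were pooled for a sort.

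In resting cells beta-catenin is held by the scaffold proteins encoded by Apc and Axin1, marked with phosphate by the kinases encoded by Csnk1a1 and Gsk3b, and handed by the ubiquitin ligase subunit encoded by Btrc to the proteasome. A Wnt signal stops this, and the beta-catenin that builds up binds TCF/LEF factors and switches on their target genes, which keeps crypt stem cells dividing in the intestine. Exon 3 of Ctnnb1 encodes the stretch that the kinases mark, so that protein made without it is stable. Beta-catenin also joins cadherins to the cytoskeleton at cell contacts.

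Promoter windows were available for 6 of the 10 genes, in 12 windows from RefSeq on GRCm38.p6, each running from 250 bases before to 50 bases after a transcript start. Apc, Axin1, Csnk1a1 and Btrc were not among them. The windows were searched on both strands for the TCF/LEF letters CAAAG with A or T at each of the positions just before them, which 16.9% of 32851 promoter windows in the table held, and for the CCAAT box, which 37.4% held. Of the 12 windows 2 held a TCF/LEF match and 2 held a CCAAT box, which over so few windows is not read as a result. Every window with a match is printed below, and most without a match are not. No match of one overlapped a match of the other in these windows. The windows printed below, all on the plus strand and with matches in capitals, are those of Ctnnb1 at chr9:120933150-120933449 and Gsk3b at chr16:38088751-38089050, since the tuft marker differences of both genes were above 0 within Lgr5+ and below 0 within Lgr5-, both starts of Tcf7l2 at chr19:55741560-55741859 and chr19:55895071-55895370, since its probes did not follow one profile, and the start of Lef1 at chr3:131156044-131156343 that held a TCF/LEF match.
Ctnnb1: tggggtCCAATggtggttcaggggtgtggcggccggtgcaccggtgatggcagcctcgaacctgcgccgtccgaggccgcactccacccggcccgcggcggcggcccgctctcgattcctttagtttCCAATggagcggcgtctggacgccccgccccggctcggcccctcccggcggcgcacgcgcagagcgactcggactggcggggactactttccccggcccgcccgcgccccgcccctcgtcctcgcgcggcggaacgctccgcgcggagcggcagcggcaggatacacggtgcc
Gsk3b: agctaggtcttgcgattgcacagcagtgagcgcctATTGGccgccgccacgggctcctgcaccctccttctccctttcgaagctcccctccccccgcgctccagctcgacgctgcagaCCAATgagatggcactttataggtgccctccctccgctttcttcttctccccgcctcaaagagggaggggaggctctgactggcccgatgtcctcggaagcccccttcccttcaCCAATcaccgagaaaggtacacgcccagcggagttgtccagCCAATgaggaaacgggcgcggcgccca
Tcf7l2, upstream start: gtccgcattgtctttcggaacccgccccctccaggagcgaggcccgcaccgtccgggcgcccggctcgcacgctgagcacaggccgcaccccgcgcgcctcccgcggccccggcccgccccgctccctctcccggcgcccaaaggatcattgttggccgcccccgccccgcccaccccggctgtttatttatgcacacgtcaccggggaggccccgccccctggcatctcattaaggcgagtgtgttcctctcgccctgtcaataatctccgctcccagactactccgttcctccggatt
Tcf7l2, downstream start: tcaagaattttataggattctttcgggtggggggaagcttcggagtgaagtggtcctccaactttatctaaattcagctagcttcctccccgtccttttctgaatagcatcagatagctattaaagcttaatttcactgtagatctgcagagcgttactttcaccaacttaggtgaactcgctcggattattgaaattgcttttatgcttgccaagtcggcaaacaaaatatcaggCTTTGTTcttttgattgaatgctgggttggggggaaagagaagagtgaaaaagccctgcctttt
Lef1: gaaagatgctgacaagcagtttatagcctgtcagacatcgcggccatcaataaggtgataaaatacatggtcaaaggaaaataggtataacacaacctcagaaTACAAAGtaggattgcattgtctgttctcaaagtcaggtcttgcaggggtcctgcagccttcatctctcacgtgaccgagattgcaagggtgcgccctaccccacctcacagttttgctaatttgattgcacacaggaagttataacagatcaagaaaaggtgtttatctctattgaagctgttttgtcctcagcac
The printed Ctnnb1 window held 2 CCAAT boxes, which began 244 and 123 bases before the start, and the Gsk3b window held 4. The window of a second Ctnnb1 start, at chr9:120933328-120933627, held neither motif and is not printed. The downstream Tcf7l2 window held 1 TCF/LEF match on the reverse strand, beginning 14 bases before the start, and the Lef1 window held 1 on the forward strand, beginning 147 bases before it. The upstream Tcf7l2 window held neither. Guanine and cytosine made up 75.3% of the printed Ctnnb1 window and 63.0% of the Gsk3b window, against a median of 52.67% over all windows of the table. A match is a description of letters, and none of these arrays measured binding.

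Levels are given as log2 of the processed intensity minus the 75th percentile of the array, so that 0 is the brightness of the 75th percentile probe and 1 is a doubling. The errors come from the scanner software's estimate for each spot. They do not cover the spread between animals, sorts or labelling reactions, which could not be measured with 1 array per population, so no difference was tested. A gene was represented by its brightest probe, and the remaining probes stand beside it. Where a probe was not well above background on one of the arrays compared, the difference is a lower limit, written "at least". Of all probes, 60.2%, 68.9%, 69.0% and 64.3% were well above background on the double-positive, Lgr5 single-positive, IL17RB single-positive and double-negative arrays, and no spot was saturated. The sort genes were read first. Il17rb was 6.75-fold higher in double-positive than in Lgr5 single-positive cells and at least 14.2-fold higher within Lgr5-. Lgr5 was at least 7.34-fold higher in double-positive than in IL17RB single-positive cells, and 5.23-fold higher in Lgr5 single-positive than in double-negative cells. Epcam was bright in every population, at levels of 5.02, 5.22, 4.52 and 5.56 in the order above.

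Ctnnb1 was bright in all 4 populations and dimmest in IL17RB single-positive cells. Its representative probe had levels of 5.07 in double-positive, 4.96 in Lgr5 single-positive, 4.38 in IL17RB single-positive and 5.23 in double-negative cells. Among these the IL17RB single-positive array stood apart below the rest, and the 3 higher arrays lay within the scanner error of their neighbours. Ctnnb1 was 1.79-fold lower in IL17RB single-positive than in double-negative cells, a log2 difference of -0.84 ± 0.20 (scanner error). Within Lgr5+ cells the same difference was 0.11 ± 0.20, and -0.04 with normexp background correction. Between Lgr5+ and Lgr5- cells the difference was 0.69 where both were tuft marker+ and -0.26 where both were tuft marker-. The second Ctnnb1 probe was also lowest in IL17RB single-positive cells and spanned a wider range, at 1.91, 1.98, 0.62 and 2.35 in the order double-positive, Lgr5 single-positive, IL17RB single-positive and double-negative. It was 3.33-fold lower in IL17RB single-positive than in double-negative cells, and -0.07 on the log2 scale within Lgr5+. The sources used here do not say where either probe lies relative to exon 3, so these levels do not check the recombination.

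Markers of other cell types differed along the same pairs. Within Lgr5- cells, the median log2 difference between tuft marker+ and tuft marker- cells was -0.85 over 13 epithelial markers, 3.84 over 14 myeloid markers and 3.02 over 12 stromal markers. Within Lgr5+ cells it was 0.09, 2.58 and 2.26 over 13, 14 and 8 of these markers. All 13 epithelial markers were above background on every array. Of the 14 myeloid markers 14, 11, 14 and 13 were above background on the double-positive, Lgr5 single-positive, IL17RB single-positive and double-negative arrays. Their summed signals were 727, 547, 786 and 620 times the 75th percentile of the array. A sum is set mostly by the brightest markers, and the median myeloid level was 2.41, -1.58, 3.30 and -0.68 on these arrays. Of 12 stromal markers 8, 8, 12 and 7 were above background in the same order, with summed signals of 41.1, 32.8, 59.9 and 42.4, and the fibroblast gene Lum and the endothelial gene Cdh5, picked after their values were seen, were above background on the IL17RB single-positive array alone. Of 19 T and NK cell markers 12, 13, 16 and 11 were above background, with summed signals of 23.9, 34.6, 57.4 and 25.3. Cd3d, Cd3g and Cd3e, which encode subunits of the T cell receptor complex, and Cd2 were likewise picked afterwards. Cd3d was above background on no array and Cd3e on every array. Cd3g and Cd2 were above background on the IL17RB single-positive array alone. The part of these cells in the levels of the 10 genes was not tested, and in bulk RNA fewer cells of a type cannot be told apart from less RNA per cell.

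**Figure D1:**
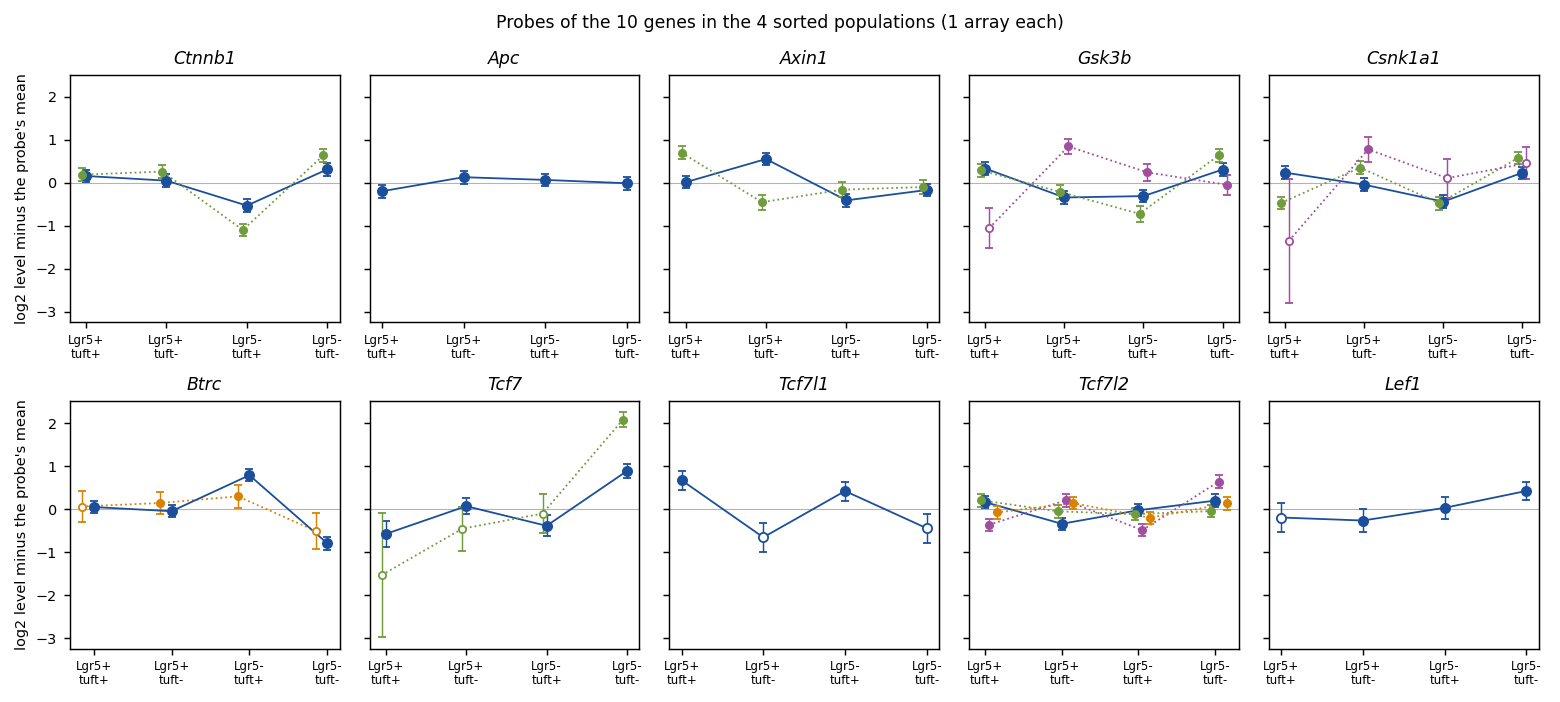
Level of each probe of the 10 genes on the 4 arrays, as log2 intensity minus the array's 75th percentile and minus the probe's own mean over the arrays, with the representative probe as a solid blue line and other probes dotted. Both Ctnnb1 probes were lowest in IL17RB single-positive cells, while the Tcf7l2 and Axin1 probes did not share one profile.

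Among the destruction complex genes, the kinase genes Gsk3b and Csnk1a1 were lower in IL17RB single-positive than in double-negative cells, Btrc was higher there, and Apc differed little anywhere. Gsk3b encodes a kinase that adds the phosphates read by the ubiquitin ligase. Its representative probe stood at 0.68 in double-positive, 0.01 in Lgr5 single-positive, 0.04 in IL17RB single-positive and 0.66 in double-negative cells. The arrays thus fell into a higher pair, double-positive and double-negative, and a lower pair, and within each pair the levels lay within the scanner error. Gsk3b was 1.60-fold higher in double-positive than in Lgr5 single-positive cells and 1.53-fold lower within Lgr5-. A second, dimmer Gsk3b probe had log2 differences of 0.50 and -1.36 in the same pairs. The third probe was dim in double-positive cells, where it was not above background, and went the other way, with differences of at least -1.61 within Lgr5+ and 0.29 within Lgr5-.

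Csnk1a1 encodes the kinase that places the priming phosphate on beta-catenin. Its representative probe had levels of 1.98, 1.70, 1.30 and 1.98 in double-positive, Lgr5 single-positive, IL17RB single-positive and double-negative cells. The IL17RB single-positive array was again lowest. Csnk1a1 was 1.59-fold lower in IL17RB single-positive than in double-negative cells, and the log2 difference within Lgr5+ was 0.28. Its second probe was 2.08-fold lower within Lgr5- and 1.77-fold lower within Lgr5+, so both probes were lower in the tuft marker+ cells of the Lgr5- class and they had opposite signs in the Lgr5+ class. The third Csnk1a1 probe was well above background in Lgr5 single-positive cells alone.

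Btrc, the substrate-binding part of the ubiquitin ligase, had the widest range of the 10 genes. Its level was 0.60 in double-positive, 0.51 in Lgr5 single-positive, 1.34 in IL17RB single-positive and -0.24 in double-negative cells. The IL17RB single-positive array was highest and the double-negative array lowest, and both Lgr5+ arrays lay between them within the scanner error of each other. Btrc was 3.0-fold higher in IL17RB single-positive than in double-negative cells, a log2 difference of 1.59 ± 0.21, and 1.07-fold higher within Lgr5+. Between Lgr5+ and Lgr5- cells it was 1.67-fold lower where both were tuft marker+ and 1.68-fold higher where both were tuft marker-. The second Btrc probe was dim, and the difference within Lgr5- was at least 0.53.

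The scaffold genes showed smaller or less uniform differences. Apc, read by 1 probe, had levels of -0.62, -0.29, -0.35 and -0.43 in double-positive, Lgr5 single-positive, IL17RB single-positive and double-negative cells. No neighbours in that order of levels were separated by more than the scanner error, and the 4 arrays spanned 0.33. Axin1 was highest in Lgr5 single-positive cells, with levels of 1.88, 2.42, 1.46 and 1.70 in the same order. It was 1.45-fold lower in double-positive than in Lgr5 single-positive cells and 1.18-fold lower within Lgr5-, where the authors' scaling turned the sign (0.05). The second, dimmer Axin1 probe was 2.22-fold higher within Lgr5+, so the probes of Axin1 did not give one direction there.

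**Figure D2:**
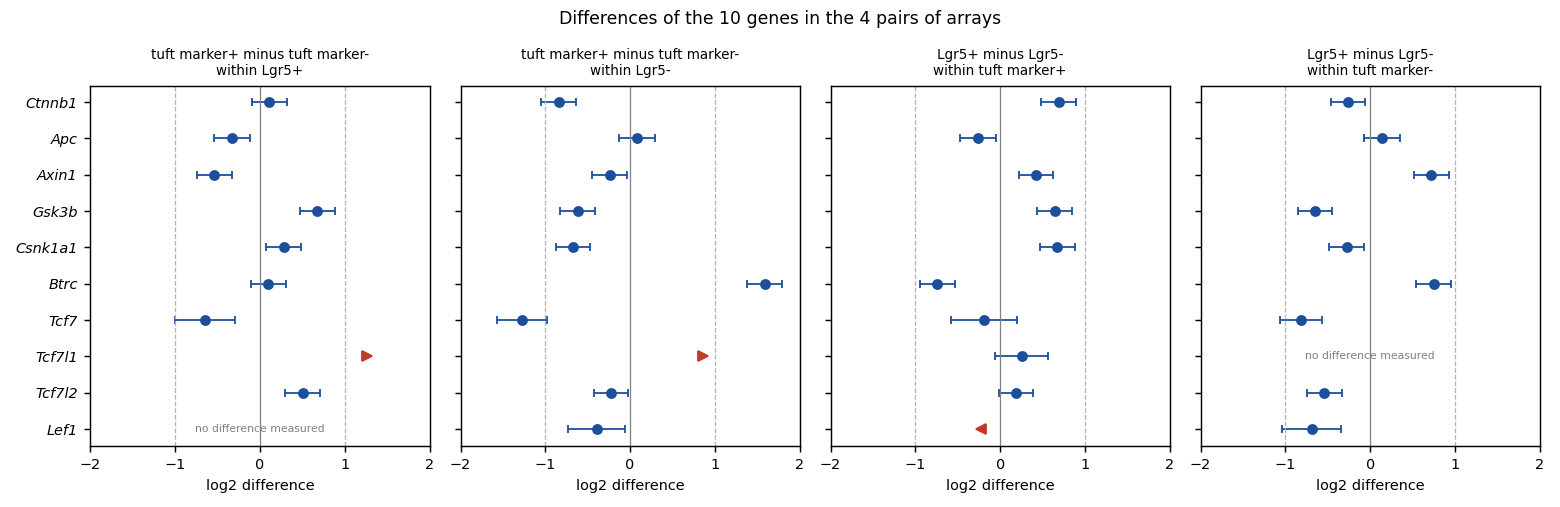
Log2 difference of each of the 10 genes in the 4 pairs of arrays by representative probe, with the scanner error as bars, lower limits as red triangles and dashed lines at a 2-fold difference. Btrc and Tcf7 lie past the lines within Lgr5- and Tcf7l1 within Lgr5+, and no gene does so between Lgr5+ and Lgr5- cells.

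Of the TCF/LEF genes, Tcf7l2 was bright and the remaining genes were close to the background of the arrays. Tcf7l2 encodes the main TCF factor of the intestinal epithelium. Its representative probe had levels of 4.80 in double-positive, 4.30 in Lgr5 single-positive, 4.61 in IL17RB single-positive and 4.84 in double-negative cells. The Lgr5 single-positive array was lowest, and the other 3 lay within the scanner error of their neighbours. The probes of Tcf7l2, which are annotated to 3 transcript records, did not share this profile. One of them read 2.42, 2.99, 2.30 and 3.43 in the order above and was 2.19-fold lower in IL17RB single-positive than in double-negative cells and 1.48-fold lower within Lgr5+. The representative probe had log2 differences of -0.22 within Lgr5-, which quantile normalization and the authors' scaling turned above 0 (up to 0.25), and 0.50 within Lgr5+. The 2 remaining probes had differences of -0.07 and -0.33 within Lgr5-, and 0.26 and -0.22 within Lgr5+. Whether the records differ at the starts printed above was not examined, since the positions of the probes were not used here.

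Tcf7, which encodes TCF1, was dim and lower in the tuft marker+ populations. Its representative probe read 16.6 and 35.0 intensity units in double-positive and Lgr5 single-positive cells, and 19.5 and 50.6 units in IL17RB single-positive and double-negative cells. The lowest spot called well above background on these arrays read 12.2, 12.1, 10.6 and 11.0 units in the same order. Both tuft marker+ arrays were thus close to the limit of detection, and they were not separated from each other. Tcf7 was 2.42-fold lower in IL17RB single-positive than in double-negative cells, a log2 difference of -1.28 ± 0.29, and 1.56-fold lower within Lgr5+ at -0.65 ± 0.36, where normexp background correction turned the sign (0.19). The same correction brought the difference between IL17RB single-positive and double-negative cells to -0.44, under 2-fold. Between Lgr5+ and Lgr5- cells it was 1.76-fold lower within tuft marker-, and -0.19 ± 0.39 within tuft marker+. The second Tcf7 probe was well above background in double-negative cells alone, where it read 44.5 units, and it was at least 3.91-fold lower in IL17RB single-positive than in double-negative cells. Tcf7 is also made in T cells, whose markers are given above, and their part in the Tcf7 signal was not tested.

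Tcf7l1, which encodes TCF3, a factor that mainly represses Wnt targets, was detected in the tuft marker+ populations and not in the tuft marker- ones. Its only probe read 21.6 units in double-positive cells, against 11.6 units in Lgr5 single-positive cells. Within Lgr5- it read 18.7 units in tuft marker+ cells, against 11.0 units in tuft marker- cells, and neither tuft marker- value was well above background. The difference was at least 2.40-fold within Lgr5+ and at least 1.82-fold within Lgr5-, both higher in tuft marker+ cells. With normexp background correction, the log2 differences were 0.63 and 0.23, so the lower limits hold for the main background treatment and not for that one. The scanner error on the log2 scale was 0.41 within Lgr5+ and 0.40 within Lgr5-. Lef1, which encodes the LEF1 factor of the family, stayed near background throughout. It read 14.0 units in double-positive cells, where it was not well above background, and 17.9, 16.8 and 23.7 units in Lgr5 single-positive, IL17RB single-positive and double-negative cells. Its highest level, in double-negative cells, lay more than the scanner error above the next, and the lower 3 were not separated.

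**Figure D3:**
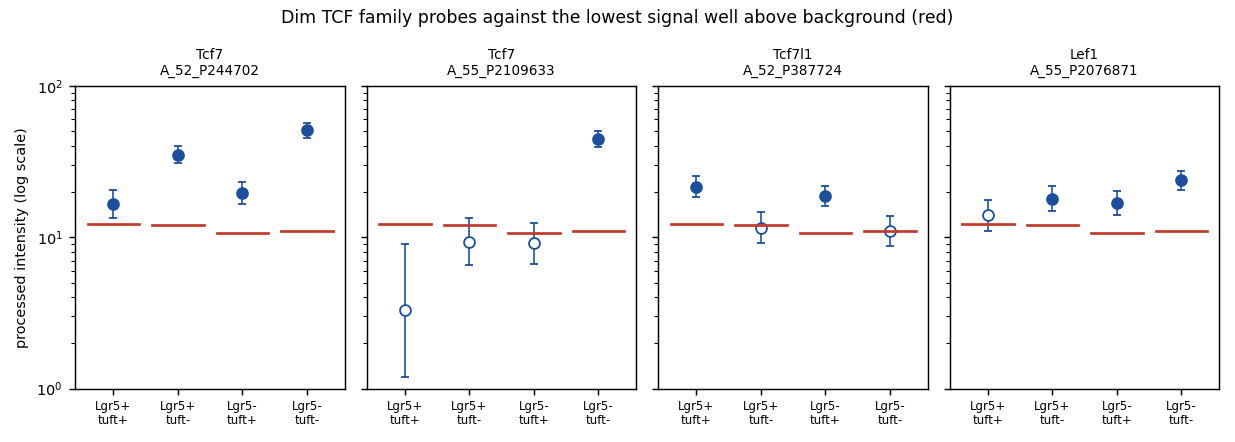
Processed intensity (log axis) of the Tcf7, Tcf7l1 and Lef1 probes on the 4 arrays, with filled points well above background, open points not, and the red line at the lowest intensity called well above background on each array. The only Tcf7l1 probe is filled on both tuft marker+ arrays and open on both tuft marker- arrays, while the representative Tcf7 probe is highest on the double-negative array.

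Counted over the 10 genes by representative probe, few differences reached 2-fold. Between double-positive and Lgr5 single-positive cells, 1 of 9 measured genes (Tcf7l1) was at least 2-fold apart, where 19.0% of 16960 measured genes were. Between IL17RB single-positive and double-negative cells, 2 of 10 (Btrc higher, Tcf7 lower) were, where 28.7% of 17898 genes were. Between Lgr5+ and Lgr5- cells where both were tuft marker+, 0 of 10 genes were at least 2-fold apart, against 20.5% of all measured genes. Where both were tuft marker-, 0 of 9 were, against 11.8%. Some other probes did pass 2-fold on that axis. Within tuft marker+, the second Ctnnb1 and Gsk3b probes were 2.44-fold and 2.01-fold higher in Lgr5+ cells. The third Gsk3b probe was at least 2.01-fold lower there. Within tuft marker-, the second Tcf7 probe was at least 4.49-fold lower in Lgr5+ cells. By direction, 10.7% of all measured genes were higher by 2-fold or more and 8.34% were lower in the first of these 4 pairs, 16.5% and 12.2% in the second, 9.03% and 11.5% in the third, and 6.54% and 5.28% in the fourth. Each of the 4 counts lies below the share of all genes, which over so few genes is not read as a result, and no gene of the 10 was past 2-fold in the same direction in both pairs of an axis, where 4.86% of 16431 genes were 2-fold or more higher in both tuft marker pairs. The median size of the log2 difference, without its sign, was 0.50, 0.65, 0.34 and 0.65 over the 10 genes in the 4 pairs in that order, against 0.48, 0.64, 0.54 and 0.41 over all measured genes. The signed medians were 0.11, -0.32, 0.22 and -0.28, against -0.02, 0.08, -0.06 and 0.01 over all genes.

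The tuft marker differences of the 10 genes were set against each other between the Lgr5 classes. The difference within Lgr5+ minus that within Lgr5- was measured without a limit for 8 genes. It was 0.95 for Ctnnb1, 1.29 for Gsk3b, 0.95 for Csnk1a1, 0.73 for Tcf7l2 and 0.63 for Tcf7, and -1.49 for Btrc, -0.41 for Apc and -0.30 for Axin1. Ctnnb1, Gsk3b, Csnk1a1 and Tcf7l2 were above 0 within Lgr5+ and below 0 within Lgr5-, 4 of the 8 genes, though Ctnnb1 lay within the scanner error of 0 in Lgr5+. Among all genes measured in all 4 populations 28.2% had these signs, and over 8 genes the count is not read as a result. With Apc, which ran the other way, 5 of the 8 had opposite signs, against 53.6% of 14055 genes measured in all 4 populations, so opposite signs were about as frequent among all genes. The size of the difference between the classes was at least 1 for 2 of the 8 genes, against 38.4% of those 14055 genes, whose signed median was 0.13. Of 20 combinations of a gene and a pair with at least 2 measured probes, the probes had one direction in 12, where 49.7%, 67.2%, 61.3% and 59.7% of all genes with such probes did in the 4 pairs.

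Other genes of the pathway were read from fixed lists, each beside the shares of all genes given above. Of 18 further destruction complex genes, all above background on every array, 5 were at least 2-fold lower and 0 higher in IL17RB single-positive than in double-negative cells, with a median log2 difference of -0.48. Within Lgr5+ 2 were higher and 1 lower, with a median of 0.27. Axin2, Gsk3a and Amer1 are named here after their values were seen. Axin2, a scaffold gene that is itself a Wnt target, had log2 differences of -1.45 within Lgr5- and 0.47 within Lgr5+. Gsk3a, the relative of Gsk3b, had -1.19 and 0.87, and Amer1, which binds the Apc protein, had -1.20 and 1.27 in the same pairs. Not all of the 18 genes had these signs. Ppp2r5e and Tnks, of the same list and also picked after their values were seen, had 0.76 and -0.42, and -0.78 and -1.09. Between Lgr5+ and Lgr5- cells within tuft marker+, 4 of the 18 were at least 2-fold higher and 0 lower, and within tuft marker- 0 passed in either direction.

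Beta-catenin coactivators, which help it to switch on genes, held no gene at least 2-fold apart in any pair among 11 measured, with medians of 0.22 and -0.30 for tuft marker+ minus tuft marker- within Lgr5+ and within Lgr5-. Of 15 corepressors and inhibitors, 2 were at least 2-fold higher and 3 lower within Lgr5-, with a median of 0.07. Among 10 partners of beta-catenin at the adherens junction, 3 were at least 2-fold lower and 0 higher in IL17RB single-positive than in double-negative cells, with a median of -0.84. Cdh1, the gene for E-cadherin and also one of the epithelial markers, had -0.93 there and 0.04 within Lgr5+. Jup, the gene for plakoglobin, had -1.12 and 0.15. Both were picked after their values were seen.

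Of 19 genes for Wnt receptors and their signalling partners, 16 were measured within Lgr5-, where 2 were at least 2-fold higher and 2 lower in the tuft marker+ cells. The Wnt receptor gene Fzd5 was lower in tuft marker+ cells in both pairs, 2.34-fold within Lgr5+ and 2.24-fold within Lgr5-, where 1.41% of 16431 genes were at least 2-fold lower in both. Lrp6, a Wnt coreceptor gene, was farthest the other way on that axis by the smaller of its differences in both pairs, at 0.45 and 0.32, and genes named below as farthest the other way were chosen by the same measure. Fzd9, another receptor gene, was lower in Lgr5+ than in Lgr5- cells, by at least 2.18-fold within tuft marker+ and at least 2.40-fold within tuft marker-, against 0.588% of 16334 genes at least 2-fold lower in both. Fzd6 was farthest the other way, at 2.79 and 0.81.

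Of 20 Wnt target genes, 18 were measured within Lgr5-, where 7 were at least 2-fold lower and 2 higher in the tuft marker+ cells, with a median of -0.47. Within Lgr5+ 3 of 19 were lower and 2 higher. Ascl2, a transcription factor gene of intestinal stem cells, was lower in tuft marker+ cells in both pairs, 2.22-fold within Lgr5+ and 2.05-fold within Lgr5-. Its level in double-positive cells was -3.07, close to the lowest level called well above background there, -3.41. Ephb3 was farthest the other way, at 0.08 and 0.13, both within the scanner error of 0.20. Between Lgr5+ and Lgr5- cells, 6 of 19 were at least 2-fold higher and 1 lower within tuft marker+, and 5 of 19 higher and 2 lower within tuft marker-. Lgr5, by which the cells were sorted, is one of these in both pairs. Cell type markers differed along these pairs too. All 6 Paneth cell markers were at least 2-fold higher in Lgr5+ cells in both pairs, with a median of 2.01 where both were tuft marker+ and of 1.94 where both were tuft marker-. Enterocyte markers had medians of 0.86 and -1.14, with 7 of 8 at least 2-fold lower within tuft marker-. The medians of epithelial, myeloid and stromal markers were 0.68, -0.90 and -1.68 within tuft marker+, and -0.34, -0.18 and -0.07 within tuft marker-. Their part in the Wnt target and member differences was not tested. Nkd1, an inhibitor gene that Wnt signals induce, was higher in Lgr5+ cells by at least 4.14-fold where both were tuft marker+ and by at least 2.27-fold where both were tuft marker-, where 0.735% of genes were at least 2-fold higher in both. Ascl2 was farthest the other way, at -0.69 and -0.57. No list held Ctnnb1 or another of the 10 genes.

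**Figure D4:**
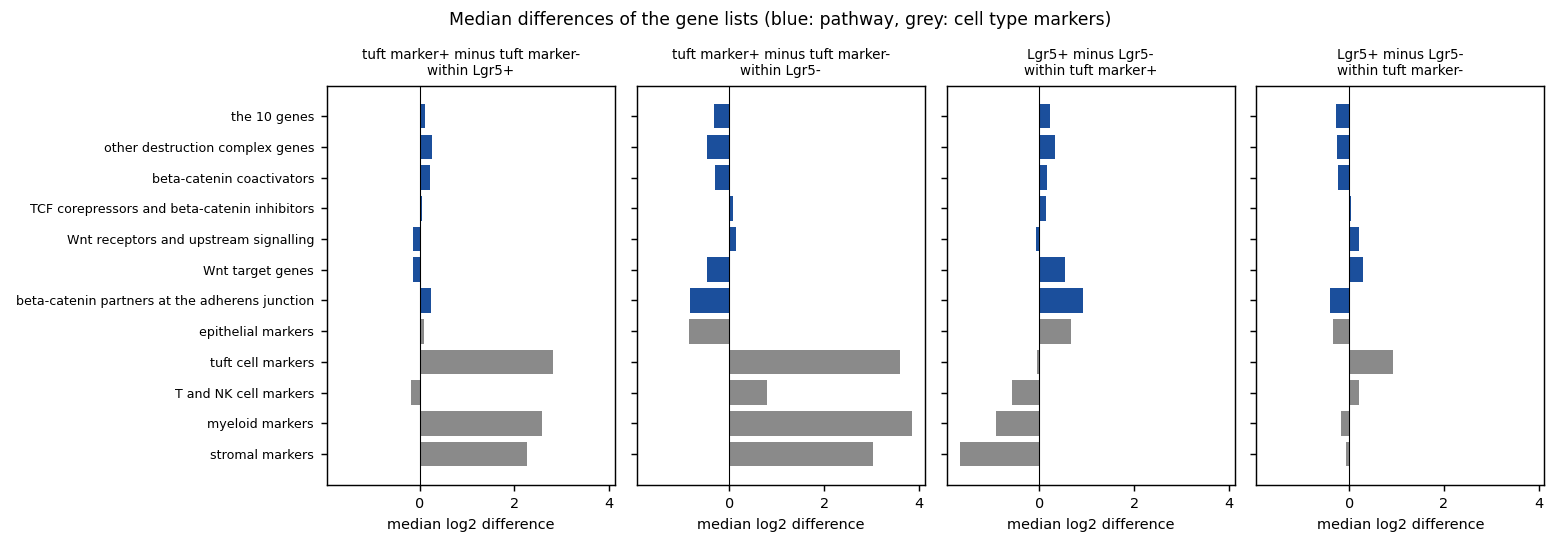
Median log2 difference of the 10 genes and of a selection of the fixed lists in the 4 pairs of arrays. The 10 genes and pathway lists are in blue and cell type markers in grey. The sort gene, B and plasma cell, innate lymphoid and mast cell, neural, stem, enterocyte, Paneth and goblet lists are not drawn. Within Lgr5-, the median of 10 adherens junction partners (-0.84) lies next to that of 13 epithelial markers (-0.85), and the myeloid and stromal markers lie at 3.84 and 3.02.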

How the data were processed

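RNA of 4 sorted populations was labelled with Cy3 (13 ng each, per the labels' protocols) and read on 1 Agilent array each. Per the file headers, the deposited processed intensity had its background subtracted and spatial trends removed by Agilent Feature Extraction 12.0.3.1, array by array; per the submitters' processing notes the version was 11.5.1.1. The same deposited files hold an error and flags of 0 or 1 from the software. The authors also deposited a table of intensity values; from the values, each column was the scanner's intensity times 1 constant per array (10.9, 7.82, 11.9 and 9.08 for double-positive, Lgr5 single-positive, IL17RB single-positive and double-negative cells), linear and not centred, with medians of 279, 286, 365 and 253; whether that scaling was intended is not stated.

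Control spots and the 91 to 122 outlier spots per array were left out, log2 intensity was reduced by the array's 75th percentile, and probe copies were averaged (median SD of 10 copies 0.053 to 0.059). Through their accession and a RefSeq table of GRCm38.p6, 32994 of 56605 probes were named. Differences against dim values used the array's lowest level among probes well above background as a floor, at -3.41, -3.86, -3.66 and -3.71 in the order above. A gene above background on 1 array of a pair and not higher there than the other array's value or floor gave no difference. The calculation was tested on simulated data in which every gene was above background. The rules for dim values and lower limits were therefore not tried by it. Alternatives were 3 other scalings (median, 75th percentile over probes above background on every array, quantile), normexp background correction (limma 3.58.1, offset 50, R 4.3.3), the authors' table, the mean of all probes, a laxer detection flag and no floor. Normexp used the median signal of the spots, since the mean signal was not used here. Tables were made with Python 3.11.15 and pandas 2.3.3.

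The 10 genes and all lists were chosen with earlier results of these data known. The named genes were the 10 genes, the sort genes, and in each list those at least 2-fold apart in one direction in both pairs of an axis (at most 4), with the one farthest the other way; genes named outside this rule are marked. The arrays hold 1 sample per population, so there is no test and no p-value.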

Additional observations from a re-analysis of the deposited data

Results flagged for a closer look

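For 5 of the 10 genes a difference between populations had opposite signs in the classes of the other marker, each beyond the scanner error of both spots. Of the 8 genes above background on all 4 arrays these are 5, where 49.1% of 14055 genes did the same, so the share among the 10 genes is close to that of genes in general. With 1 array per population, none of these differences between pairs was tested. The value given is the difference within Lgr5+ minus that within Lgr5- on the tuft marker axis, which equals the difference within tuft marker+ minus that within tuft marker- on the Lgr5 axis. Ctnnb1 had opposite signs on the Lgr5 axis, with a value of 0.95. Gsk3b had opposite signs on both axes, with a value of 1.29. Csnk1a1 had opposite signs on both axes, with a value of 0.95. Btrc had opposite signs on the Lgr5 axis, with a value of -1.49. Tcf7l2 had opposite signs on the tuft marker axis, with a value of 0.73. Other probes of Csnk1a1 and Tcf7l2 did not all share these signs within Lgr5+. The third, dim probe of Gsk3b had the opposite sign in all 4 pairs, and the mean of the Gsk3b probes gave -0.14 within Lgr5+.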

How the results depend on the processing

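No paired analysis was possible because each population had 1 array. The median of the 10 genes between tuft marker+ and tuft marker- cells within Lgr5+ was 0.11, and -0.0068 when the probes of a gene were averaged. Within Lgr5- the median of -0.32 was -0.55 with median scaling and -0.023 with the authors' scaled values, and between Lgr5+ and Lgr5- cells within tuft marker+ the median of 0.22 was 0.44 with median scaling. Counts of the 10 genes at least 2-fold apart were 1, 2, 0 and 0 in the 4 pairs (tuft marker in Lgr5+ cells, then in Lgr5- cells, and Lgr5 in tuft marker+ cells, then in tuft marker- cells). At 1.5-fold they were 3, 6, 4 and 5. The share of all genes at 1.5-fold is not given here, so these counts are not read as a result about the 10 genes. At 2-fold, normexp gave 0 within Lgr5+ and 1 within Lgr5-, and the mean of all probes gave 1 for Lgr5 within tuft marker-. The cause was not tested. Of all genes, 3229, 5133, 3569 and 2060 were at least 2-fold apart in the 4 pairs, and 903, 1716, 757 and 296 with normexp, which compresses dim probes by construction. With the laxer detection flag, which admits more genes, 5318, 7243, 5858 and 4035 were apart in the 4 pairs. Higher genes made up 57.4%, 44.0% and 55.3% of those apart in the last 3 pairs, and 37.2%, 67.0% and 41.2% with median scaling; the authors' scaled values gave 79.6% and 28.0% in the first and second of these. Within Lgr5- the median of all genes above background on every array was -0.04 on the log2 scale, -0.27 with median scaling and 0.26 with the authors' values, which there moved it most.

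Within Lgr5-, the tuft marker difference ran over the 8 alternatives from -1.29 to -0.39 for Ctnnb1, from 1.06 to 1.88 for Btrc and from -1.62 to -0.44 for Tcf7. The lower limit for Tcf7l1 ran from 0.23 (normexp) to 1.16 within Lgr5- and from 0.63 (normexp, which ends its 2-fold call) to 1.39 within Lgr5+. Signs within Lgr5+ were turned for Axin1, Gsk3b, Csnk1a1 and Tcf7l2 by the mean of all probes (0.31, -0.14, -0.24 and -0.01) and for Ctnnb1 and Tcf7 by normexp (-0.04 and 0.19). Dim probes limit Tcf7, Tcf7l1 and Lef1.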

Other observations

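Over the 4 arrays, the profile of Ctnnb1 was most closely shared by Slc26a6, Kif5b and Rab2a among 14047 genes above background on every array, with root mean square differences of 0.011, 0.017 and 0.018 between levels centred by gene. Btrc, the gene of widest range among the 10, was closest to Selenom, Exoc3l and 4930444P10Rik, with 0.032, 0.036 and 0.040. With 4 points per profile such likeness is a description.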
